A study of Homo sapiens with 72 samples.

Results

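PEO1 cells sorted into RucHigh and RucLow after 2 h of rucaparib are described here. The 2 gates hold 9 libraries each, 18 of the 72 libraries of the series. Members were taken from the labels as libraries treated with rucaparib for 2 h and sorted as high or low drug fluorescence. The estimated counts of the 3 libraries that share a replicate number were added, which gave 3 RucHigh and 3 RucLow samples paired by replicate number. PEO1 is an established human line derived from a high-grade serous ovarian carcinoma, and it is the only line here. Cells of both gates received 8.5 µM rucaparib, an inhibitor of the DNA repair enzyme PARP that is itself fluorescent. By the study's sorting methods, RucHigh holds the 20% of rucaparib-positive cells of highest and RucLow the 20% of lowest drug fluorescence. Both gates therefore came from 1 treated population and carry the same drug exposure in the medium. RucTotal cells, treated but unsorted, and Vehicle cells, given DMSO and unsorted, were fitted in the same model, and per the labels unsorted cells were scraped straight into the lysis buffer.

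Rucaparib is a weak base, and weak bases can be held in acid lysosomes. The amount of such a drug in a cell can depend on lysosomes, on import and export and on metabolism, and the study sorted at an early time to look for differences between cells that were already there before the drug acted. A sort compares cells of 1 line with each other, and lines of serous cancer contain cells that differ in epithelial differentiation, cell cycle phase and stress state. In bulk RNA of a gate, a larger share of cells that use a gene and more RNA per cell cannot be told apart.

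Libraries held 29040832 to 35502036 estimated reads apart from 1 RucLow library of replicate 2 with 17391033. In that library reads came from transcripts of 2351 bases on average, against 2594 to 3172 bases in the other 17, and 32200 genes were detected, against 21664 to 24186. Its reads stayed in the sum of RucLow replicate 2, and counts without it are given beside the results they change. Markers of the serous lineage summed to 13900 to 16000 TPM (transcript abundance scaled by length and depth) in RucHigh and 13300 to 15400 TPM in RucLow. Markers of immune cells summed to 2.52 to 3.17 and 2.26 to 3.45 TPM, almost all of it CD14, and the pan-leukocyte gene PTPRC was at most 0.23 TPM. Sums of endothelial markers were 3.78 to 5.72 TPM in RucHigh and 3.92 to 4.27 TPM in RucLow, with PECAM1 at most 0.042 TPM. Fibroblast markers summed to 61.3 to 156 TPM in both gates together, carried by THY1 and FAP, while COL3A1 was at most 0.0344 TPM. Of the serous markers PAX8 and WT1 were present in every sample, while SOX17 was at most 0.0128 TPM and FOLR1 at most 0.137 TPM.

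After 2 h of drug, 75 genes were higher and 1 was lower in RucHigh than in RucLow. The largest fold changes were those of AKR1C2, a carbonyl reductase, and SPP1, which encodes osteopontin, both under 1 CPM on average, and among genes of at least 1 CPM those of the protease gene MMP7, SPRR2A and VTCN1. The highest levels among the 75 were those of FTH1, the ferritin heavy chain, FN1, which encodes fibronectin, and CD24. Log2 fold changes (the fitted log2 ratio of RucHigh to RucLow) ran from 0.41 to 2.90 with a median of 0.88, and 28 of the 75 were above 1. Against 20131 genes tested, the higher calls are 0.373% and the lower call 0.00497% of all genes. Calls rest on edgeR's quasi-likelihood test with the replicate number as a block, where the p adjusted by Benjamini-Hochberg had to be under 0.05. Of all genes, 799 were higher and 452 lower at an unadjusted p under 0.05, and the median over all genes was -0.01.

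All 75 genes were higher in RucHigh in 3 of 3 replicates. In 64 of them the 3 RucHigh samples lay above the 3 RucLow samples, which held for 3.81% of all genes, and 2.52% of all genes lay the other way round. For 25 genes each of the 9 RucHigh libraries was above each of the 9 RucLow libraries, a separation that 0.219% of all genes showed. Within each of the 3 replicates, 50 of the 75 genes had all RucHigh libraries above all RucLow libraries, against 0.755% of all genes. The 75 were called on these same libraries, so shares above those of all genes follow from that choice. Libraries of 1 replicate are also not separate replicates. The number of calls depended on the replicate block and on all 3 replicates, and the block rests on a general statement of the study that FACS experiments were repeated on different days, which does not name these libraries. Without the block 1 gene was higher, AKR1C2, and with replicate 1, 2 or 3 left out 4, 0 and 6 genes were higher. The sign of all 75 stayed positive in each of those fits. Because each of the 75 was positive in 3 of 3 replicates, that sign could hardly change. Without replicate 2 edgeR's lowest adjusted p was 0.066 and 703 genes had an unadjusted p under 0.05. A fit of only the 6 samples called no gene with edgeR, with 1130 genes at an unadjusted p under 0.05, among them all 75. The 75 had been picked with these same 6 samples in the fit. Without the short RucLow library 73 genes were higher, of which 67 were among the 75. Among the genes lost were CD24, FYB1, CRISPLD1, ANOS1, HSH2D, WIPI1 and NPTXR.

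**Figure D1:**
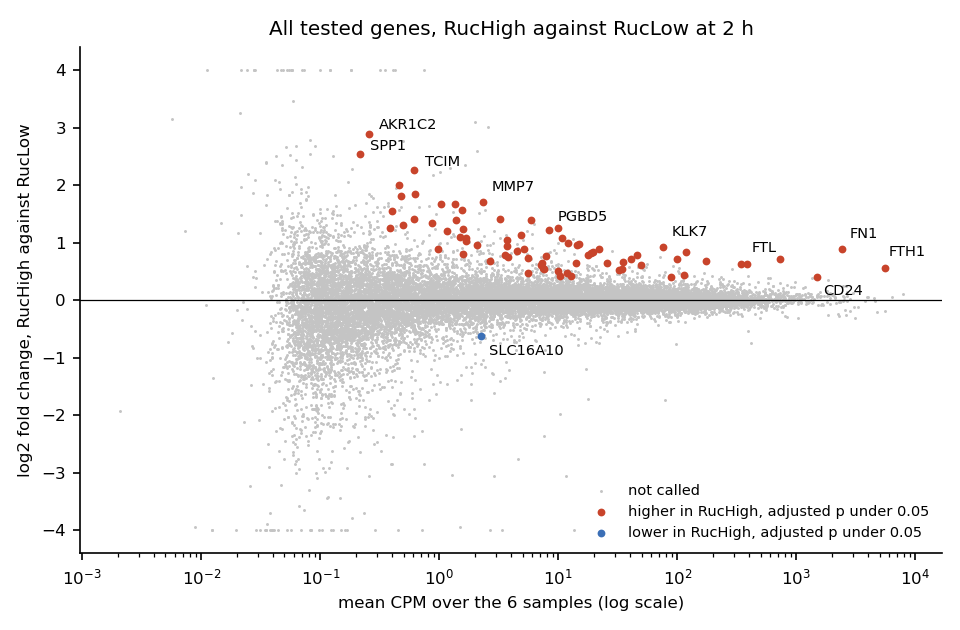
Log2 fold change of RucHigh against RucLow at 2 h (y axis) and mean CPM over the 6 samples (x axis, log scale) for all tested genes, with values beyond 4 drawn at 4. Red points are the 75 genes called higher and the blue point is SLC16A10, the 1 gene called lower, and FTH1 and FN1 lie far to the right of most red points.

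Proteases and secreted proteins of differentiated epithelium formed one group among the higher genes. MMP7 (chromosome 11, 102520508 to 102530753 in GRCh38) encodes matrilysin, a metalloproteinase made by epithelial cells. It was 0.689, 1.66 and 1.03 CPM (counts scaled to library size, after TMM) in RucLow and 2.88, 4.62 and 3.11 CPM in RucHigh of replicates 1, 2 and 3. Every RucHigh sample was above every RucLow sample, and the log2 fold change was 1.71 (standard error 0.18, adjusted p = 0.000282 from edgeR). KLK7 (chromosome 19, 50976482 to 50984099), a serine protease of the kallikrein family, was 34.2, 65.1 and 57.6 CPM in RucLow and 68.3, 129 and 101 CPM in RucHigh. Its gates did not overlap, although the lowest RucHigh sample stood only just above the highest RucLow sample, and each replicate moved by a similar ratio (log2 fold change 0.93, standard error 0.10, adjusted p = 0.000311 from edgeR). WFDC2, whose product HE4 is a serum marker of ovarian cancer, was 10.6, 10.7 and 7.72 CPM in RucLow and 22.5, 20.2 and 14 CPM in RucHigh, without overlap (log2 fold change 0.96, standard error 0.13, adjusted p = 0.00242 from edgeR). It was the 1 called of 14 tested serous lineage markers, against 0.373% called higher of all genes. Those 14 had a median of 0.05, with 11 above 0. PAX8, WT1, EPCAM, KRT7 and KRT8 lay at 0.03, -0.13, 0.07, 0.05 and -0.06.

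Of 19 secretory mucin and luminal epithelial genes tested, 3 rose, KLK7, WFDC2 and the secretory pathway disulfide isomerase gene AGR2 (log2 fold change 1.35), and none fell, while 17 had a fold change above 0. The median of the list was 0.36, against -0.01 over all genes. Of all 20131 genes 0.373% were called higher, 0.00497% lower and 9767 lay above 0, so lists would seldom hold a lower call. These lists were written with earlier results of these data known. The kallikreins, a family set apart after its values were seen, had 8 of 9 tested genes above 0 with a median of 0.30, and KLK7 was the 1 called. KLK5 and KLK6, at far higher levels, had log2 fold changes of 0.20 and 0.30 (adjusted p = 0.317 and 0.329 from edgeR). Of 25 genes of plasminogen activators, metalloproteinases and their inhibitors, 2 rose, MMP7 and SERPINB2, none fell, and the median was 0.25 with 20 above 0. SERPINB2, an inhibitor of plasminogen activators, was 7.14, 6.46 and 10.4 CPM in RucLow and 13.1, 17 and 17.9 CPM in RucHigh (log2 fold change 0.99, standard error 0.17, adjusted p = 0.0115 from edgeR), without overlap. MMP1, the interstitial collagenase, was just outside the threshold at 1.13 (adjusted p = 0.052 from edgeR), and the tissue plasminogen activator gene PLAT, at 1.32, was further from it (adjusted p = 0.375).

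SPRR2A and SPRR1A, genes of the cornified envelope that forms the protein shell of squamous cells, were also called higher, at low levels. SPRR2A (chromosome 1, 153056113 to 153057537) was 0.344, 0.780 and 0.401 CPM in RucLow and 1.51, 1.87 and 1.32 CPM in RucHigh (log2 fold change 1.67, standard error 0.29, adjusted p = 0.0115 from edgeR). Its neighbour SPRR1A, 70.6 kb away on the same chromosome, was 0.194, 0.210 and 0.211 CPM in RucLow and 0.823, 0.957 and 0.458 CPM in RucHigh (log2 fold change 1.81, standard error 0.27, adjusted p = 0.0049 from edgeR). Neither gene overlapped between gates. All 5 tested SPRR genes, a family set apart after its values were seen, lay at 1.00 or above, and SPRR1B at 1.00 was not called (adjusted p = 0.396). Members of this family resemble each other in sequence, so reads of 1 gene can be assigned to another.

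Promoters of SPRR1A, SPRR2A, MMP7 and SERPINB2, the members just described that share the letters TGANTCA, searched on both strands, which AP-1 factors are known to bind, are shown. The stretches run from 250 bases before to 30 bases after the start site of RefSeq, in GRCh38.p14, 5′ to 3′ on the strand of the gene, and capitals mark the motif.
SPRR1A (chr1:152983831-152984110, + strand): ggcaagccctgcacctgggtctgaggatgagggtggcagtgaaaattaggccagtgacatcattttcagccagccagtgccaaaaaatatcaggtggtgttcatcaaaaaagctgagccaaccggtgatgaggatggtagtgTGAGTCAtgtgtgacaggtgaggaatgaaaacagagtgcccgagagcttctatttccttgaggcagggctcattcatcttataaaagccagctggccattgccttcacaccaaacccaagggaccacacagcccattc
SPRR2A (chr1:153057483-153057762, - strand): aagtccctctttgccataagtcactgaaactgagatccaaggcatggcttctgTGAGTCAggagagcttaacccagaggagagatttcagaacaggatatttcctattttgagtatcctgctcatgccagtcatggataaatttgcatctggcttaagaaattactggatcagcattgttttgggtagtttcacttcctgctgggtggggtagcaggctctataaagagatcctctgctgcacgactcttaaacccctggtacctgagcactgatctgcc
MMP7 (chr11:102530718-102530997, - strand): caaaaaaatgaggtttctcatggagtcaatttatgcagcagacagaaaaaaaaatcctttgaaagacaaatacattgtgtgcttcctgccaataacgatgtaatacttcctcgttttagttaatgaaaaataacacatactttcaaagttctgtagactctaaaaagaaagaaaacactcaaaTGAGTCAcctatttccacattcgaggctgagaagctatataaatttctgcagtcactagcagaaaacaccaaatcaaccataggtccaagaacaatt
SERPINB2 (chr18:63887455-63887734, + strand): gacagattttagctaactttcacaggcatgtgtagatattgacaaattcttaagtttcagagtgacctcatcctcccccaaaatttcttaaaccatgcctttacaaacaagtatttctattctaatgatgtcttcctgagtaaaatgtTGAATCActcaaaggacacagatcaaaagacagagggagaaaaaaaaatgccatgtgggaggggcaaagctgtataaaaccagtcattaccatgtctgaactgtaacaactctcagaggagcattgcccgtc
The motif began 108, 197, 67 and 102 bases before the start in SPRR1A, SPRR2A, MMP7 and SERPINB2, and the letters TATAAA began 29 or 30 bases before it in each of them. The other called genes with TGANTCA, which are FST, SDCBP2, SLC2A12 and VTCN1, had no TATAAA in their windows, and the genes to show were chosen after their sequences were seen. Promoter windows of 300 bases were at hand for 45 of the 75 genes. TGANTCA was in at least 1 window of 8 of the 45 genes (17.8%), against 9.37% of 27305 genes, and TATAAA in 13 of them (28.9%), against 14%. Genes with several start sites have several windows, which raises the share of genes with a match. By window, TGANTCA was in 8 and TATAAA in 13 of the 71 windows of the 45 genes, against 7.71% and 11.5% of 35116 windows. A match of letters says nothing of binding in these cells.

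Ligands and receptors of the TNF family formed another group. TNFSF10, the death ligand TRAIL, was 1.24, 2.36 and 1.76 CPM in RucLow and 3.46, 6.4 and 4.31 CPM in RucHigh, with no overlap (log2 fold change 1.41, standard error 0.21, adjusted p = 0.0049 from edgeR). TNFRSF11B, which encodes osteoprotegerin, a soluble decoy receptor that binds RANKL and TRAIL, was 3.67, 5.91 and 7.62 CPM in RucLow and 8.07, 17.7 and 16.3 CPM in RucHigh (log2 fold change 1.26, standard error 0.16, adjusted p = 0.00159 from edgeR). Replicate 1 was the lowest pair of both genes, and in TNFRSF11B its RucHigh sample was only just above the highest RucLow sample. EDAR, the receptor of ectodysplasin in skin appendages, and the death receptor gene TNFRSF21 were higher by 0.88 and 0.41 (adjusted p = 0.00267 and 0.0268). As a family set apart after its values were seen, 3 of 21 tested TNF receptors and 1 of 14 TNF ligands rose. The share called higher among all genes was 0.373%. The receptors as a whole had a median of 0.00, with 11 above 0. The nerve growth factor receptor gene NGFR lay the other way at -1.90 (adjusted p = 0.0524 from edgeR), at 2.10, 0.520 and 0.390 CPM in RucLow and 0.311, 0.225 and 0.146 CPM in RucHigh, and its gates did not overlap.

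Other higher genes encode signals to immune cells. TSLP, an epithelial cytokine that acts on dendritic cells, was 0.592, 0.706 and 0.992 CPM in RucLow and 1.48, 2.41 and 3.05 CPM in RucHigh (log2 fold change 1.56, standard error 0.21, adjusted p = 0.00242 from edgeR). VTCN1, the inhibitory T cell ligand B7-H4 that serous cancers often carry, was 0.570, 0.805 and 0.570 CPM in RucLow and 2.09, 2.46 and 1.63 CPM in RucHigh (log2 fold change 1.67, standard error 0.24, adjusted p = 0.00326 from edgeR). In both genes the lowest RucHigh sample lay well above the highest RucLow sample. The mucosal chemokine gene CCL28 was higher by 0.86, LGALS9, which encodes galectin-9, by 0.89 and SECTM1 by 0.72. ALOX5, the enzyme that opens leukotriene synthesis, was 0.807, 1.18 and 0.844 CPM in RucLow and 2.22, 2.67 and 1.78 CPM in RucHigh (log2 fold change 1.24, standard error 0.15, adjusted p = 0.000908 from edgeR). The broad lists of this kind held no call: of 32 chemokine, cytokine and NF-kB genes none passed edgeR or DESeq2 (2 higher and 0 lower at an unadjusted p under 0.05, median 0.08). Of 39 interferon and antigen presentation genes none passed either test (5 higher and 1 lower at an unadjusted p under 0.05, median 0.19), with 33 above 0.

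**Figure D2:**
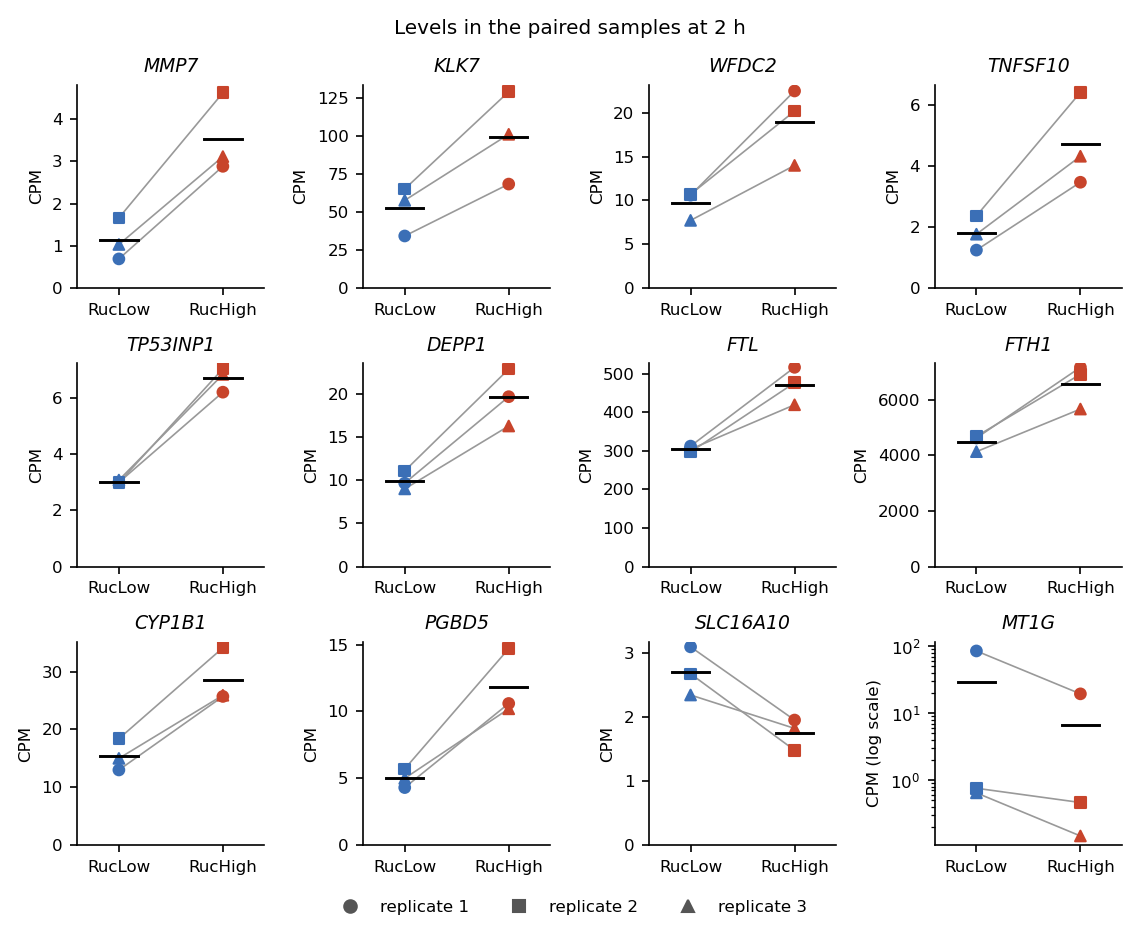
CPM of 12 genes in the RucLow (blue) and RucHigh (red) samples at 2 h, with a grey line between the samples of a replicate and a black bar at the mean of 3 (log scale for MT1G). In the 10 called higher genes every line goes up, with KLK7 from 34.2 to 68.3 CPM in replicate 1, and in SLC16A10 and MT1G every line goes down.

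Both chains of ferritin, the cytosolic store of iron, were higher at high levels. FTH1 (chromosome 11, 61959718 to 61967660), the heavy chain with ferroxidase activity, was 4620, 4680 and 4130 CPM in RucLow and 7160, 6910 and 5660 CPM in RucHigh. FTL (chromosome 19, 48965301 to 48966878), the light chain, was 312, 297 and 304 CPM in RucLow and 516, 476 and 419 CPM in RucHigh. The gates of both genes did not overlap, nor did any of their single libraries, which were 5540 to 8450 against 3930 to 5090 CPM for FTH1 and 411 to 547 against 271 to 348 CPM for FTL without TMM scaling. Log2 fold changes were 0.55 for FTH1 (standard error 0.10, adjusted p = 0.0199 from edgeR) and 0.62 for FTL (standard error 0.10, adjusted p = 0.00527). Processed copies of both genes in the genome can share their reads. The other 16 tested genes of ferritin and iron handling were not called, and the median of the 18 was 0.05. HMOX1, the heme oxygenase that frees iron from heme, was 21.8, 13.6 and 21.2 CPM in RucLow and 28.3, 28.6 and 33.3 CPM in RucHigh, at 0.67 (adjusted p = 0.177 from edgeR).

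Ferritin chains and AKR1C enzymes are among the genes that the oxidative stress factor NRF2 is known to drive. Of 31 tested genes of that list 4 rose, AKR1C2, AKR1C3, FTL and FTH1, and none fell, with a median of 0.04. Higher calls were 0.373% and lower calls 0.00497% of all genes. AKR1C2 and AKR1C3 reduce steroids and other carbonyls and lie 17.3 kb apart on chromosome 10. AKR1C2 was 0.0431, 0.0619 and 0.0739 CPM in RucLow and 0.478, 0.473 and 0.406 CPM in RucHigh, 16 counts against 124 over the 3 samples (log2 fold change 2.90, standard error 0.41, adjusted p = 0.00326 from edgeR). AKR1C3 was 0.269, 0.384 and 0.201 CPM in RucLow and 0.712, 0.890 and 0.510 CPM in RucHigh (log2 fold change 1.31, standard error 0.24, adjusted p = 0.0155), whereas their paralog AKR1C1 was at -0.16 (adjusted p = 1.00), and at 0.28 without the short RucLow library. Reads of these near-identical genes can be split between them, and single libraries overlapped for AKR1C2, at 0 to 0.948 CPM in RucHigh and 0 to 0.241 CPM in RucLow. NQO1, a detoxifying reductase driven by NRF2 and by the aryl hydrocarbon receptor (AHR), was 177 CPM on average and at 0.16 (adjusted p = 0.827).

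AHR is a sensor of planar chemicals that switches on cytochrome P450 genes of family 1. CYP1B1 (chromosome 2, 38066973 to 38109902) was 13, 18.4 and 15 CPM in RucLow and 25.7, 34.1 and 25.9 CPM in RucHigh, without overlap (log2 fold change 0.89, standard error 0.15, adjusted p = 0.00803 from edgeR). It was the 1 called of 12 tested genes of the AHR list, which had 8 above 0 and a median of 0.13. Among all 20131 genes 0.373% were called higher and 9767 lay above 0. CYP1A1 and CYP1A2 did not overlap between gates either, at 1.09 and 0.79 (adjusted p = 0.0781 and 0.152 from edgeR). The aldehyde dehydrogenase gene ALDH3A1 was at 0.72 and the repressor AHRR at 0.37. TIPARP, LRAT and SLC7A5 lay at -0.07, -0.14 and -0.05, and AHR itself, its partner ARNT and NFE2L2, the gene of NRF2, at 0.02, 0.10 and -0.0043, none of them called. Single libraries of NFE2L2 ran from 2.69 to 72.7 CPM in RucLow and from 1.27 to 73.6 CPM in RucHigh without TMM scaling.

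A few genes tied to FOXO factors, which act when growth signalling is low, and to autophagy and mTOR were among the calls. TP53INP1, which promotes autophagy and cell death, was 2.99, 2.98 and 3.07 CPM in RucLow and 6.19, 7.02 and 6.82 CPM in RucHigh. The 3 samples of a gate lay close together and far from the other gate (log2 fold change 1.14, standard error 0.16, adjusted p = 0.00326 from edgeR). DEPP1 (chromosome 10, 44970981 to 44978810), a FOXO target that affects autophagy and peroxisomes, was 9.68, 11.1 and 9.01 CPM in RucLow and 19.7, 22.9 and 16.3 CPM in RucHigh (log2 fold change 0.98, standard error 0.19, adjusted p = 0.0237). Of 25 FOXO-related genes tested these 2 rose, none fell, 22 were above 0 and the median was 0.24. Over all 20131 genes 0.373% were called higher, 0.00497% lower and 9767 lay above 0. FBXO32, a ubiquitin ligase subunit of muscle wasting, was 12.9, 8.83 and 7.71 CPM in RucLow and 17.8, 18.6 and 15 CPM in RucHigh and just outside the threshold at 0.81 (adjusted p = 0.0524). TP53INP2 at 0.87 and the BH3-only gene BMF at 0.87 were further from it (adjusted p = 0.0569 and 0.117). DESeq2 called 5 genes of the list, including these 3.

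DEPTOR, an inhibitor that binds mTOR, was 2.50, 2.40 and 2.37 CPM in RucLow and 4.65, 5.35 and 5.07 CPM in RucHigh, without overlap (log2 fold change 1.04, standard error 0.20, adjusted p = 0.0255 from edgeR). WIPI1, which binds the membranes from which autophagosomes form, was higher by 0.42 in 3 of 3 replicates, though its gates overlapped (adjusted p = 0.0445). Without the short RucLow library its adjusted p was 0.0782. Both belong to the 46 tested genes of MiT factors, autophagy and lysosomal mTORC1. None of the 46 fell (of all genes 0.373% were called higher and 0.00497% lower), and the median of that list was 0.10. Outside that list, CALCOCO1, a receptor for autophagy of the endoplasmic reticulum, was 11.3, 16.1 and 14.4 CPM in RucLow and 19.7, 29.1 and 26.4 CPM in RucHigh (log2 fold change 0.84, standard error 0.13, adjusted p = 0.00611). YPEL3, a growth-suppressing gene, was higher by 0.66 (adjusted p = 0.0236), and all 4 tested YPEL genes were above 0, with YPEL2 at 0.91 not called (adjusted p = 0.0609).

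The letters GTAAACA, searched on both strands, the core that FOXO factors are known to bind, were in a promoter window of 4 of the 45 genes (8.89%), against 4.19% of all 27305 genes. By window, they were in 4 of the 71 windows of the 45 genes, against 3.42% of 35116 windows. Windows of 3 of the 4 genes are shown, those of DEPP1, YPEL3 and the actin-severing gene GSN. The other gene is SDCBP2, which was also called higher (log2 fold change 0.66), and the 3 shown were not chosen by a set rule. The stretches are drawn as above, with the motif of either strand in capitals.
DEPP1 (chr10:44978780-44979059, - strand): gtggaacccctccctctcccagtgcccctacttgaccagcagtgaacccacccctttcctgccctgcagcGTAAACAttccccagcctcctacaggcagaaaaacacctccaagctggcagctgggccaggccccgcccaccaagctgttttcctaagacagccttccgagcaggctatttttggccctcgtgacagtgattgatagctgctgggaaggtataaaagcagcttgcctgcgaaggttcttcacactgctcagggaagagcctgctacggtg
YPEL3 (chr16:30096184-30096463, - strand): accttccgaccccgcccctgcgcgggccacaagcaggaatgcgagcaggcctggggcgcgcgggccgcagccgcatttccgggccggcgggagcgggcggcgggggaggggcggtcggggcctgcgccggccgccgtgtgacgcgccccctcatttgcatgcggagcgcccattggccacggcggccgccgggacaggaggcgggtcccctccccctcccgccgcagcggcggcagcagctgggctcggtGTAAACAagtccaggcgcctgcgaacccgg
GSN (chr9:121286299-121286578, + strand): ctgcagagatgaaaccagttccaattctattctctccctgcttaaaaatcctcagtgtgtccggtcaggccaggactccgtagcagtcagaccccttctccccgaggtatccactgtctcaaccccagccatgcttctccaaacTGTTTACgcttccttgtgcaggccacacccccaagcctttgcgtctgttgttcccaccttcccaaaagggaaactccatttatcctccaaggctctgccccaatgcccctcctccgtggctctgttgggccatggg
The motif began 180 bases before the start of DEPP1, 106 bases before that of GSN, which has 6 windows, and at the first transcribed base of YPEL3.

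Matrix, adhesion and cytoskeletal genes were also among the calls. FN1 (chromosome 2, 215360440 to 215436172), the matrix protein fibronectin, was 1090, 1840 and 2090 CPM in RucLow and 1960, 3940 and 3510 CPM in RucHigh. The RucHigh sample of replicate 1 lay below the RucLow sample of replicate 3, so the gates overlapped, but each pair moved the same way (log2 fold change 0.89, standard error 0.14, adjusted p = 0.00572 from edgeR). It was the 1 called of 43 tested fibronectin, collagen and laminin genes, against 0.373% called higher of all genes, and the list median was 0.07. CD24, an epithelial surface glycoprotein, was 1160, 1320 and 1370 CPM in RucLow and 1450, 1970 and 1730 CPM in RucHigh (log2 fold change 0.41, standard error 0.08, adjusted p = 0.0199). Without the short RucLow library its adjusted p was 0.0775. CCN3, a matricellular protein, was higher by 0.61, and SPP1, the secreted matrix protein osteopontin, by 2.53 on 17 counts in RucLow and 101 in RucHigh, too few for an exact ratio.

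Keratin genes split. KRT15, of basal and progenitor epithelium, was 458, 699 and 495 CPM in RucLow and 900, 1060 and 740 CPM in RucHigh (log2 fold change 0.71, standard error 0.12, adjusted p = 0.0119 from edgeR). KRT23 was 181, 303 and 317 CPM in RucLow and 288, 472 and 477 CPM in RucHigh (log2 fold change 0.63, standard error 0.12, adjusted p = 0.0181), where replicate 1 was low in both gates and the gates overlapped. Of 34 tested keratin genes, a family set apart after its values were seen, these 2 rose and none fell. Of the 34, 21 were above 0, and the median was 0.18. The shares called higher and lower among all genes were 0.373% and 0.00497%. GSN, the tubulin gene TUBA1A and the actin-capping gene TMOD1 were higher by 0.72, 0.68 and 0.69. DPYSL3 and LMO7, both tied to the cytoskeleton, were higher by 0.43 and 0.79.

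**Figure D3:**
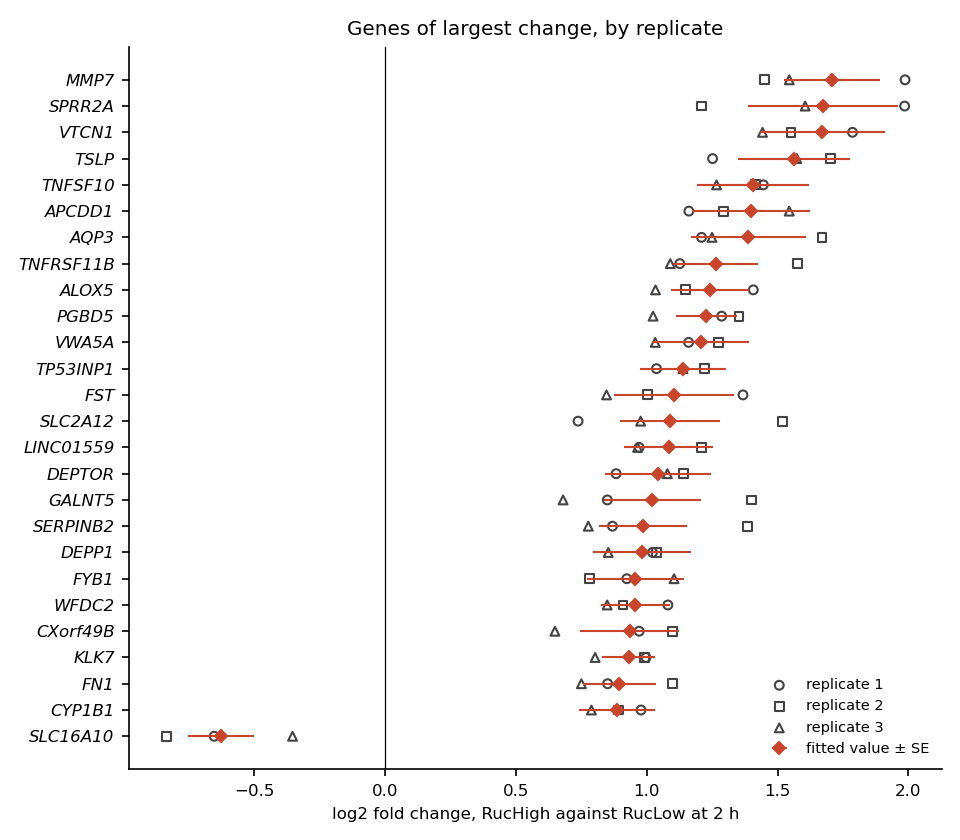
Log2 fold change of RucHigh against RucLow at 2 h for the 25 called genes of largest increase and the 1 called lower. Genes shown had to average at least 1 CPM and have the same sign in 3 of 3 replicates. Open symbols are the 3 replicates and red diamonds the fitted value with its standard error. By that rule all 3 replicates of each gene lie on 1 side of 0, from 1.45 to 1.99 for MMP7.

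Other called genes encode channels, transporters and developmental regulators. AQP3, a channel for water and glycerol, was 3.7, 3.34 and 2.69 CPM in RucLow and 8.63, 10.7 and 6.47 CPM in RucHigh, without overlap (log2 fold change 1.39, standard error 0.22, adjusted p = 0.00611 from edgeR). The glucose transporter gene SLC2A12 was 5.33, 6.17 and 8.84 CPM in RucLow and 8.92, 17.8 and 17.5 CPM in RucHigh (log2 fold change 1.09, standard error 0.19, adjusted p = 0.0129), with replicate 1 of RucHigh only just above replicate 3 of RucLow. Carbonic anhydrase CA2 and the potassium channel gene KCNQ3 were higher by 0.78 and 0.77. PGBD5 (chromosome 1, 230314482 to 230426371), a gene derived from a transposase, had the lowest p of all. It was 4.31, 5.71 and 5.00 CPM in RucLow and 10.6, 14.7 and 10.2 CPM in RucHigh (log2 fold change 1.23, standard error 0.12, adjusted p = 8.2e-05 from edgeR). The transcription factor gene SOX4 was higher by 0.85. APCDD1, an inhibitor of Wnt signals, and FST, which encodes the activin antagonist follistatin, were higher by 1.4 and 1.10.

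Besides LINC01559, a long noncoding RNA (log2 fold change 1.08), the genes of largest change included GALNT5, a mucin-type glycosyltransferase, at 1.02, the adaptor FYB1 at 0.96, VWA5A at 1.21 and CXorf49B, which has a near-identical copy, at 0.93. Of the 75, 73 are protein-coding and 2 are long noncoding RNAs. They lie on 20 chromosomes, and 8 neighbouring pairs are less than 1000000 bases apart, among them KRT23 and KRTAP3-1 (70.9 kb) and ADGRF1 and TNFRSF21 (189 kb). Such pairs were not counted among other tested genes. Only 12 of the 75 averaged under 1 CPM, and 9 averaged over 100 CPM.

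SLC16A10 (chromosome 6, 111087503 to 111231194), a carrier of aromatic amino acids, was the 1 gene called lower in RucHigh. It was 3.09, 2.67 and 2.34 CPM in RucLow and 1.95, 1.48 and 1.82 CPM in RucHigh, without overlap (log2 fold change -0.63, standard error 0.13, adjusted p = 0.0344 from edgeR). The metallothionein gene MT1G, which encodes a small metal-binding protein, was at -1.71 and just outside the threshold (adjusted p = 0.0533). It was 85.4, 0.755 and 0.644 CPM in RucLow and 19.5, 0.462 and 0.146 CPM in RucHigh, so nearly all of its RNA was in replicate 1 while the direction was shared by 3 of 3 replicates. Of 12 tested metallothionein and zinc response genes none was called by edgeR and 1 by DESeq2 (0 higher and 3 lower at an unadjusted p under 0.05), with 11 below 0 and a median of -0.53. By replicate that median was -1.11, -0.07 and -0.04, and MT2A, the most abundant member, was 1710, 1000 and 749 CPM in RucLow and 1100, 931 and 685 CPM in RucHigh. KANK4, a gene of cell adhesion sites, was at -0.33 (adjusted p = 0.136).

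The lists of lysosomal lumen and membrane proteins, V-ATPase subunits, ABC efflux transporters and PARP and base excision repair genes held no edgeR call. Of 56 lysosomal lumen, 39 lysosomal membrane and 23 V-ATPase genes tested none passed edgeR, and the medians were 0.11, 0.11 and 0.12, with 45, 32 and 20 genes above 0. Of all 20131 genes 0.373% were called higher by edgeR, so lists of this size would often hold no call. Of the same 20131 genes 9767 were above 0, and 799 were higher and 452 lower at an unadjusted p under 0.05. At an unadjusted p under 0.05, 11, 6 and 4 genes of these lists were higher and 0, 0 and 1 lower, and DESeq2 called 1 lumen gene. That gene was CTSD, the protease cathepsin D, at 224, 282 and 220 CPM in RucLow and 323, 323 and 270 CPM in RucHigh (log2 fold change 0.34, adjusted p = 0.136 from edgeR). Without the short RucLow library edgeR called it as well (adjusted p = 0.0453). GRN, LAMP1, LAMP2, SCARB2, APP and ATP6V1F lay between 0.13 and 0.27, CTSL at 0.00, and the lysosomal regulators TFEB and TFE3 at -0.22 and -0.10, with no adjusted p under 0.831. Of 12 efflux transporters of the ABC families none passed edgeR or DESeq2 or an unadjusted p under 0.05, and the median was 0.01. ABCB1 averaged 0.0705 CPM, on too few counts to show a difference (log2 fold change -0.14, standard error 0.71), and ABCG2 was at -0.02 (standard error 0.24). The PARP and base excision repair list likewise had no gene at an unadjusted p under 0.05 or called by DESeq2 (35 tested, median 0.02). PARP1 was at -0.11 with a standard error of 0.74, and its levels ran from 37.1 to 80.7 CPM in RucLow and from 27.9 to 83 CPM in RucHigh. Single libraries of PARP1 ran from 3.86 to 103 CPM in RucLow and from 0.319 to 86.5 CPM in RucHigh without TMM scaling. PARP2 was at -0.08.

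Genes of dividing cells lay slightly below 0 without a call. All 58 tested genes of DNA replication and S phase and 62 of 66 genes of G2 and mitosis were below 0, with medians of -0.10 and -0.18, and none passed edgeR or DESeq2 (1 and 6 lower, 0 and 0 higher at an unadjusted p under 0.05). Such genes move together with the share of cells in a phase, so their count is not a count of separate results. The median of the G2 and mitosis list differed between replicates, at 0.04, -0.15 and -0.38, while that of the S phase list was -0.06, -0.17 and -0.06. AURKA, CCNB1, CCNB2 and TPX2 lay at -0.13, -0.20, -0.25 and -0.21. All 13 mitochondrially encoded genes were below 0, with a median of -0.26 and none at an unadjusted p under 0.05 or called by DESeq2. Their share of reads varied widely between libraries of 1 sample, from 0.63 to 4.29% in RucHigh and 1.7 to 5.29% in RucLow of replicate 1, and was 0.387% in the short RucLow library. The part of that variation in their values was not tested.

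**Figure D4:**
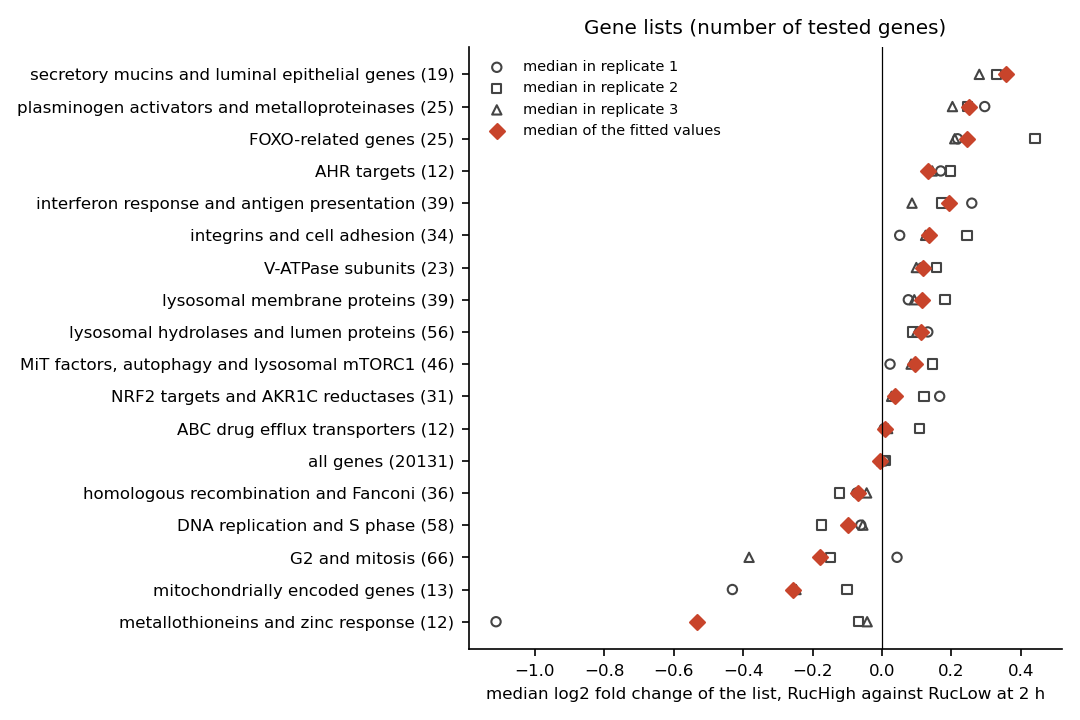
Median log2 fold change of RucHigh against RucLow at 2 h over the tested genes of 17 lists and of all genes, with open symbols for the medians of the 3 replicates and red diamonds for the fitted values. The luminal epithelial list stands furthest to the right at 0.36 with all replicates above 0, and the metallothionein list furthest to the left at -0.53 with replicate 1 far from the others.

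The same comparison at 24 h of drug used other sorted samples. Each of the 75 genes higher at 2 h had a fold change above 0 there too. Their median was 0.90 on the log2 scale, where it had been 0.88, and 63 of them were called higher. These 63 are 84.0% of the genes higher at 2 h and 52.5% of the 120 higher at 24 h, and the calls at 24 h are 0.596% of all genes. The difference between the 2 times, tested as an interaction, was called for no gene by edgeR or DESeq2 (296 of 20131 genes at an unadjusted p under 0.05, 2 of them among the 75). MMP7 was at 2.09 at 24 h, KLK7 at 1.07, FTL at 0.61, FTH1 at 0.49 and TP53INP1 at 1.18. CYP1A1, CYP1A2, BMF, FBXO32, MMP1, YPEL2 and CTSD, not called at 2 h, were called higher at 24 h, at 1.4, 1.07, 1.64, 0.97, 1.43, 1.12 and 0.42, and MT1G was called lower at -2.47.

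Unsorted cells with and without drug were compared at 2 h. RucTotal against Vehicle gave 6 higher and 23 lower genes, 0.144% of all tested, and none of the 75 was among them by edgeR. The fold changes of the 75 in that comparison had a median of 0.02 and ran from -0.53 for SPP1 to 0.94 for KRTAP3-1, with 46 above 0 and 29 below. MMP7 was 2.36 ± 0.592 CPM in Vehicle and 2.34 ± 0.432 CPM in RucTotal (mean ± SD, n = 3), and CYP1B1 was 20.5 ± 2.75 and 20.5 ± 2.99 CPM. For 69 of the 75 genes the mean of RucTotal lay between the means of RucLow and RucHigh, in 5 it was above RucHigh and in 1 below RucLow. The 75 were picked for a difference between 2 gates of treated cells, so a mean of treated cells between them was likely beforehand. The share over all genes was not counted. Unsorted cells were lysed without a sort, and the part of that handling in their levels was not tested. None of the 29 genes of RucTotal against Vehicle was called between the gates by edgeR. Of all genes 0.373% were called higher and 0.00497% lower between the gates, so a set of 29 genes would often hold no call.

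**Figure D5:**
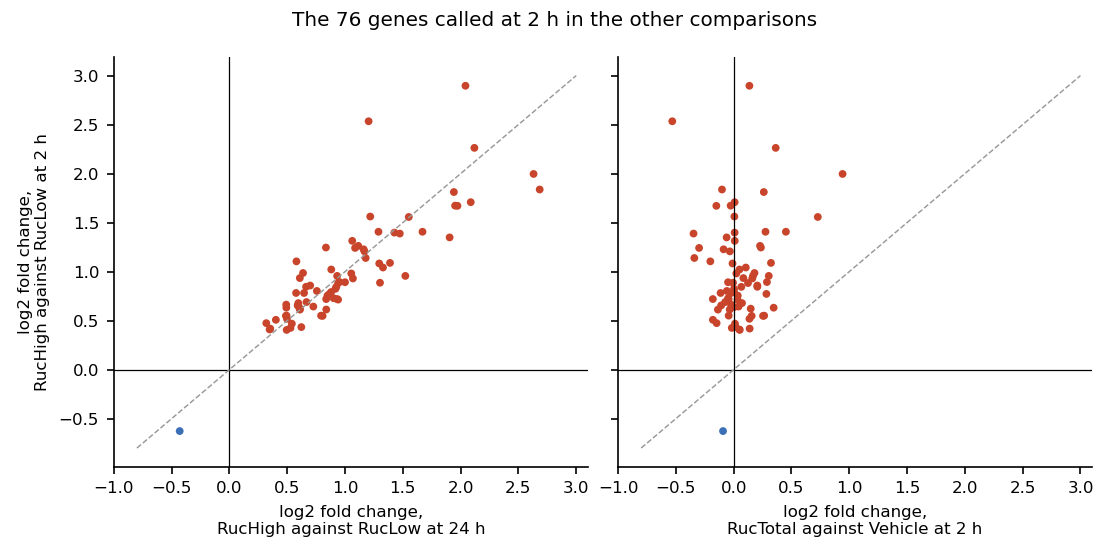
Log2 fold change at 2 h between gates (y axis) of the 75 genes called higher (red) and of SLC16A10 (blue) against their log2 fold change between gates at 24 h (left) and between RucTotal and Vehicle at 2 h (right), with equality as a dashed line. Points on the left lie around the line, and on the right they lie around 0 with a median of 0.02.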

How the data were processed

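Poly(A) RNA of PEO1 cells was sequenced for 8 groups, each with 3 replicates of 3 libraries, and the labels gave groups and replicate numbers. The authors deposited estimated counts and TPM per transcript from Salmon (version not given in the sources used here). Besides Salmon, cutadapt 4.7, DESeq2 1.44.0 and GRCh38 are named in the submitters' processing notes. Transcripts were summed to genes by GENCODE release 29 or a table of gene names, and the 51386 of 257369 transcripts not matched (7.11 to 8.96% of the reads) were left out. Libraries of a replicate were added and rounded, and 24 samples were fitted with edgeR 4.0.16 in R 4.3.3 (filterByExpr, TMM, quasi-likelihood, group and replicate block, Benjamini-Hochberg adjustment). Samples of 1 number were treated as pairs, because the study states of its FACS experiments in general, without naming this RNA sequencing, that replicates were made on different days, and the labels describe both gates as cut from the treated population. Samples of the same number deviated together from their group means (median correlation 0.287, lowest -0.064), and others did not (-0.122). For RucHigh and RucLow at 2 h they were 0.355, 0.0792 and 0.55 in replicates 1, 2 and 3. Whether replicates are separate cultures is not in the labels, so p-values measure the spread between these samples. Totals of 17391033 to 35502036 reads per library limit what can be shown of genes under 1 CPM.

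Named genes were up to 25 called genes per direction of largest change (at least 1 CPM on average, same sign in 3 of 3 replicates), up to 3 called members of each list per direction, the AHR list, lysosomal, mitotic, PARP, efflux and AKR1C genes and cell type markers. Other genes named were chosen after their values were seen, and families such as kallikreins were formed by symbol then. The members and the 48 lists were chosen with earlier results of these data known. The fit was tested on simulated data. Alternatives were no block, DESeq2 1.42.0, its size factors, other filters and sample sets, limma 3.58.1 on single libraries or log2(TPM + 1), transcript length terms and left-out libraries or replicates. Some called genes are not reported here.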

Additional observations from a re-analysis of the deposited data

Results flagged for a closer look

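Among the 9 RucLow libraries at 2 h, 1 library of replicate 2 stood apart from the others of its gate in several measures. It had 17391033 estimated reads, the lowest total, its reads came from transcripts of 2351 bases on average, the shortest, and 32200 genes were detected in it, the most. Without it, 73 genes were higher and 1 lower in RucHigh, and all 75 genes higher with it kept a fold change above 0, with a median of 0.85. In RucHigh, 1 library of replicate 2 had 29040832 estimated reads, below the other 8 by more than their spread, and its transcript length, share of mitochondrial reads and genes detected did not stand apart by the same measure. Chance alone sets a library apart by this measure in about 1 in 20 groups.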

How the results depend on the processing

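Genes higher and lower in RucHigh at 2 h were 75 and 1, and 1 and 0 without the replicate block, 148 and 17 with DESeq2, 0 and 0 in the 6 samples alone, 35 higher in the 12 sorted samples, 185 and 50 with limma-voom on single libraries, 145 and 9 with a covariate for transcript length, 37 and 0 with an offset for effective length and 20 and 0 on log2(TPM + 1). No filter gave 10 lower and a block within each time 0 lower. With a replicate left out there were 0 to 6 higher and 0 lower, on fewer samples. At 24 h the counts were 120 and 3, and 22 and 0 without the block, 232 and 37 with DESeq2, 206 and 26 with the length covariate, 10 lower without the filter and 1 to 51 higher and 0 to 1 lower with a replicate left out. The difference of the times gave 2 higher without the filter and 1 lower with the length covariate. RucTotal against Vehicle at 2 h gave 6 and 23, and 1 and 4 without the block, 121 and 289 with DESeq2, 38 lower with its size factors, 50 and 96 without the filter, 123 and 108 with the length covariate and 0 to 1 and 0 to 4 with a replicate left out. The causes of these differences were not tested. For 8 genes lost without the short RucLow library, adjusted p was 0.0508 to 0.0782. None of the 76 called genes changed sign in any alternative, but the alternatives reuse the samples that picked these genes. Of 47 other genes examined, 13 changed sign, none of them called. Log2 fold changes of the opposite sign were, for AHRR, -0.14 (limma-voom), -0.03 (length offset) and -0.12 (log2 TPM), for ARNT -0.05 (length offset) and -0.01 (log2 TPM), and for AHR -0.01, -0.09 and -0.05 under the same alternatives as AHRR. For NFE2L2 they were 0.09 (no block), 0.01 (length covariate) and 0.05 (log2 TPM), for TIPARP 0.03 (limma-voom), for AKR1C1 0.13 (limma-voom), 0.28 (without the short library) and 0.41 (length offset), for ABCB1 0.48 and for PAX8 -0.01 (both without the short library), for ABCG2 0.01 (no block) and 0.39 (limma-voom), and for PARP1 and WT1 0.00 (log2 TPM). CTSL, at 0.0019, went to -0.01 or -0.02 without the block, with DESeq2, its size factors, either filter, limma-voom and the length offset, to -0.07 without the short library and to -0.05 with the length covariate. With a replicate left out the values ran from 0.00 to 0.19 for ARNT, -0.05 to 0.12 for AHR, -0.25 to 0.28 for NFE2L2, -0.24 to 0.16 for TIPARP, -0.45 to 0.07 for AKR1C1, -0.22 to 0.24 for CTSL, -0.28 to 0.00 for AURKA, -0.22 to 0.05 for PARP1, -0.49 to 0.04 for ABCB1, -0.16 to 0.15 for ABCG2 and -0.02 to 0.06 for PAX8.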

Other observations

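Several groups not described above held no edgeR call between the gates at 2 h, and the p53 targets held 1. With 0.373% of all genes called higher, lists of this size would often hold none. All but 5 of 76 cytosolic ribosomal protein genes were above 0, with a median log2 fold change of 0.08, and none passed edgeR, DESeq2 or an unadjusted p under 0.05. By replicate that median was 0.24, 0.03 and 0.01, and at 24 h only 7 of the 76 were above 0. Of 36 genes of homologous recombination and the Fanconi pathway, which repair the breaks that PARP inhibitors leave, 10 were above 0 and the median was -0.07, and none passed edgeR or DESeq2 (1 higher and 3 lower at an unadjusted p under 0.05). Of 28 targets of YAP and TEAD, which respond to cell contact and stretch, 10 were above 0, edgeR called none and DESeq2 called 1 lower (0 higher and 2 lower at an unadjusted p under 0.05). The 30 tested p53 targets had a median of 0.04, and TP53INP1 was the 1 called. The 24 cholesterol genes lay between -0.17 and 0.16, and neither edgeR nor DESeq2 called any, nor did any reach an unadjusted p under 0.05.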
